A study of Mus musculus with 10 samples.

Results

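Collagens are the structural proteins of the extracellular matrix, and the genes of their chains were compared between melanoma tumours of exercised and non-exercised mice. The members were the probe sets whose single gene symbol in the platform annotation has the form of a collagen chain (Col, number, a, number). The rule found 46 probe sets of 21789 with 1 symbol, which represent 44 genes of 19938. Of these 44 genes 11 encode fibrillar chains, 8 encode chains of the basement membrane (the 6 chains of type IV and the multiplexins Col15a1 and Col18a1) and 25 encode other types. Transcripts were measured on 10 Affymetrix whole-transcript arrays of melanoma tumours of male mice, 5 in an Exercise group and 5 in a non-Exercise group. The series title speaks of voluntary exercise. The sources used here do not state the strain and age of the mice, the tumour cells or the form and length of the exercise. All levels below are on the log2 scale of the deposited values after quantile normalization, and a change is the exercise mean minus the non-exercise mean, with its standard error (SE) after ±. A gene was called higher or lower when the limma p, adjusted by the Benjamini-Hochberg method over all 19938 genes, was under 0.05.

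A collagen molecule is a triple helix of 3 chains, each built of short repeats that start with glycine. Fibrillar chains such as those of types I, III and V assemble into the banded fibrils that give connective tissue its tensile strength, and fibroblasts are their main source. Type IV chains form the sheet-like network of basement membranes under endothelium and epithelium, type VI forms beaded filaments around cells, and the FACIT collagens, such as types XII and XIV, bind to the surface of fibrils. In tumours the collagen matrix is made mostly by cells of the stroma, and it is known to stiffen the tissue and to affect the passage of cells through it.

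The promoters of 4 members are printed because these genes stand for the main outcomes of the comparison: Col1a2 and Col8a1 rose, Col10a1 fell and Col4a1 did not pass the test. Each window covers 250 bases before and 50 bases after the annotated start in RefSeq (build GRCm38.p6), written 5′ to 3′ along the strand of the gene. Capitals mark every match, on either strand, to the CCAAT box (CCAAT), the GC box (GGGCGG) or the TATA box (TATAAA).
Col1a2 (chr6:4505368-4505667, plus strand): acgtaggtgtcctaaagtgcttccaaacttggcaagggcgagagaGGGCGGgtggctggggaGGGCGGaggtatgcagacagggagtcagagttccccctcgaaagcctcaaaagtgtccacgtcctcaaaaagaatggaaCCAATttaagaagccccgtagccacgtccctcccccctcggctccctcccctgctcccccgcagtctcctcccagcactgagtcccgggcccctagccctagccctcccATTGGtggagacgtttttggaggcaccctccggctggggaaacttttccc
Col8a1 (chr16:57754688-57754987, minus strand): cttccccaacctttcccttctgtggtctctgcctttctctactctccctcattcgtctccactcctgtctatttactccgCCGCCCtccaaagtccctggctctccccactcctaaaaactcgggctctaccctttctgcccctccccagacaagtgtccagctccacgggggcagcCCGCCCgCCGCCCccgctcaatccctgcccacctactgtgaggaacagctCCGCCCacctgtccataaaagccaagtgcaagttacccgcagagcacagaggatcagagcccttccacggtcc
Col4a1 (chr8:11312777-11313076, minus strand): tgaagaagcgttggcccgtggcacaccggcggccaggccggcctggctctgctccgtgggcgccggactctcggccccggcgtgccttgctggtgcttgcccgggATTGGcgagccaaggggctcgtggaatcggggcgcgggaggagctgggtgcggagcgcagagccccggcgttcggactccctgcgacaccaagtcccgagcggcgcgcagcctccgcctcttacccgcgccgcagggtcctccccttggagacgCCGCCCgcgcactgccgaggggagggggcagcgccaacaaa
Col10a1 (chr10:34389731-34390030, plus strand): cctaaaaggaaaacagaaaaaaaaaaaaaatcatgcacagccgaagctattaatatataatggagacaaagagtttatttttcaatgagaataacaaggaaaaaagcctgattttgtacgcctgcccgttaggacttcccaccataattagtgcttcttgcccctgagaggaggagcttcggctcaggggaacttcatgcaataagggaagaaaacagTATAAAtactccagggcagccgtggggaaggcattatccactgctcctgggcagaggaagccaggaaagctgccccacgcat
The window of Col1a2 held the CCAAT box on its own strand at -109 from the start and on the opposite strand at 1, and GC boxes at -205 and -188. Col8a1 had 4 GC boxes, all on the opposite strand, at -170, -73, -66 and -23. The Col10a1 window had a TATA box at -32 and neither other motif. The window of Col4a1 overlapped that of its neighbour Col4a2 by 78 bases on the opposite strand, and their annotated starts lay 21 bases apart. A promoter window was found for 35 of the 44 members. The GC box was in windows of 22 of these genes (62.9%) and in 35.7% of all 32851 windows. The CCAAT box was in 13 (37.1%, against 37.4% of all windows) and the TATA box in 5 (14.3% against 13.6%). Members were counted by gene and the whole set by window, so that these shares are not strictly comparable. Of the 6 genes called higher that had a window, 3 held a GC box, 2 a CCAAT box and 1 a TATA box. These matches are a description of the letters in the windows.

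Array medians before normalization lay between 8.64 and 8.77. All 9 markers of melanocytes, such as the pigment genes Tyr and Dct, were bright, with a mean level between 12.85 and 13.02 in all 10 arrays. None of them passed the test, and after median centring 2 were lower (against 15.4% of all genes). Exercise arrays 306, 309 and 310 stood apart by transcripts of hepatocytes such as the albumin gene Alb: the mean level of 10 hepatocyte genes lay between 9.83 and 10.42 there and between 7.86 and 8.34 in the other 7 arrays. The counts of collagen genes are therefore also given without these 3 arrays. That fit keeps only arrays 300 and 301 of the exercise group against 5 non-exercise arrays. A call can be lost there because fewer arrays were compared. As a guide to background, the 95th percentile of the mean levels of 1027 olfactory receptor genes, which tissue outside the nose scarcely transcribes, was 8.75. Nothing in the labels ties each array to its own animal, so that p-values here reflect how far these arrays differ, and their number limits the precision.

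The chains of types I and III, 2 of the 3 type V chains, some chains of collagens around fibrils and Col15a1 were higher in the exercise group, and 33 of the 44 members, among them all 6 type IV genes, did not pass the test. Of 44 collagen genes 10 were called higher: Col1a1, Col1a2, Col3a1, Col5a2, Col5a3, Col6a3, Col8a1, Col12a1, Col14a1 and Col15a1. These are 22.7% of the members, against 6.35% of all genes called higher. Col10a1 was the 1 member called lower, 2.27% of the members against 10.6% of all genes. The fibrillar group had 5 of 11 genes higher (45.5%), the basement membrane group 1 of 8 (12.5%) and the other types 4 of 25 (16.0%). The median change was 0.11 over the members, 0.30 over fibrillar, 0.05 over basement membrane and 0.10 over other types, against -0.02 over all 19938 genes. A mean level under 8.75, near background, was found for 1 of the 11 fibrillar, 3 of the 8 basement membrane and 7 of the 25 other genes. All 10 remained higher without exercise arrays 306, 309 and 310, and Col5a1 and Col22a1 then passed too, so that 12 were higher (27.3%, against 3.74% of all genes) and none lower (against 8.06%, with Col10a1 at -0.41 and adjusted p = 0.0659 by limma). After median centring 10 members were higher and 1 lower, against 4.70% and 15.4% of all genes. With a robust prior in limma 4 were higher and 1 lower, against 5.18% and 10.6% of all genes, and Col1a1, Col3a1, Col5a2, Col6a3, Col12a1 and Col14a1 did not pass (limma adjusted p 0.0511 to 0.129).

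**Figure D1:**
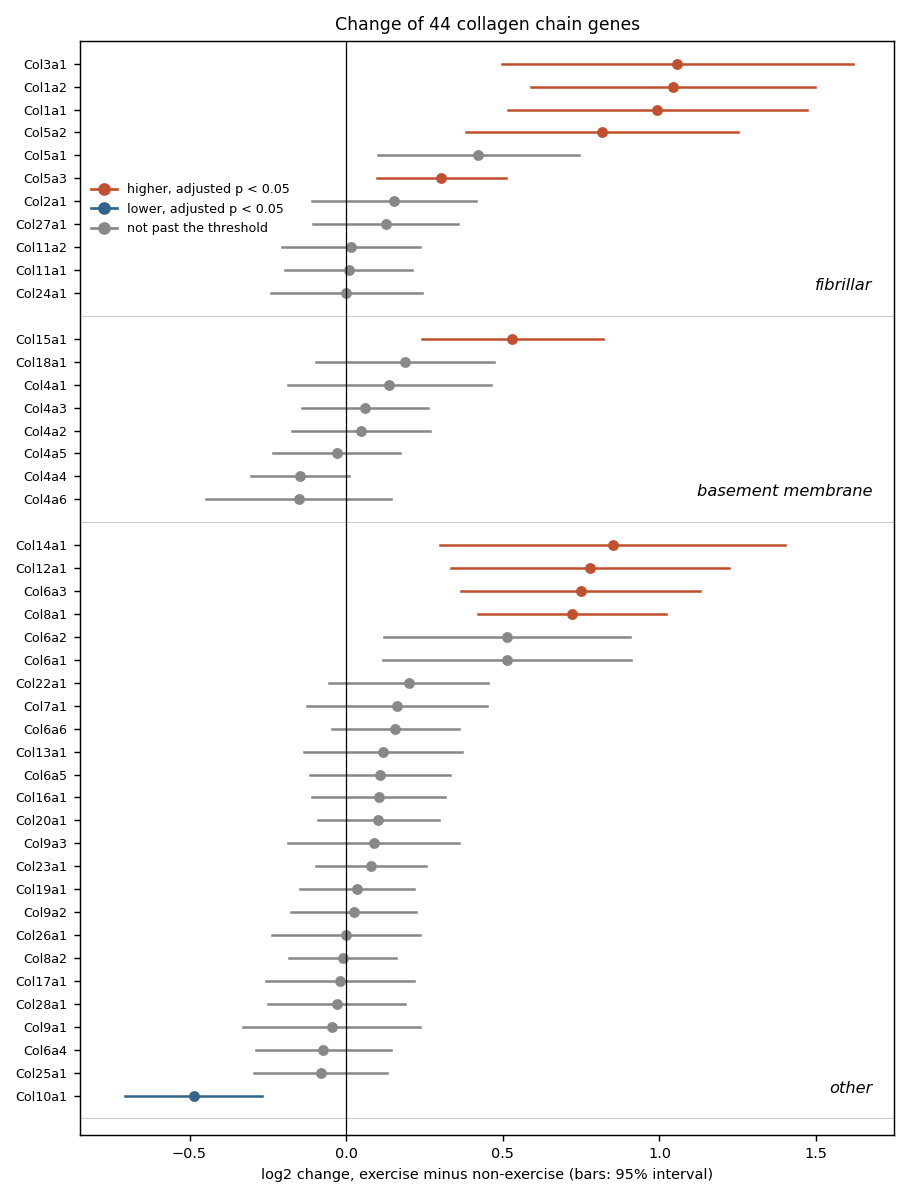
Log2 change (exercise minus non-exercise) of each of the 44 collagen genes with its 95% interval from limma, in blocks of fibrillar, basement membrane and other types; orange marks the 10 genes called higher, blue the 1 called lower and grey the 33 that did not pass. The largest changes are those of Col3a1, Col1a2 and Col1a1, and the 6 type IV genes lie around 0. Of these 6, 3 had a mean level under 8.75, near background.

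Both chains of type I collagen, the main fibril of skin and tendon, rose. Col1a1, its alpha-1 chain, read 12.05, 11.32, 10.72, 11.57 and 11.97 in exercise arrays 300, 301, 306, 309 and 310. It read 10.09, 10.90, 10.55, 10.26 and 10.88 in non-exercise arrays 326, 327, 329, 330 and 331. In this order of arrays Col1a2, the alpha-2 chain, read 12.42, 11.71, 11.23, 12.09 and 12.34 with exercise and 10.44, 11.19, 10.95, 10.65 and 11.34 without. For both genes 4 exercise arrays exceeded every non-exercise array, and array 306 lay within the range of the non-exercise group. Col1a1 was 1.99-fold higher, at 11.53 ± 0.54 against 10.53 ± 0.36 (SD, n = 5 each), a change of 0.99 ± 0.22 (limma adjusted p = 0.00791). Col1a2 was 2.06-fold higher, at 11.96 ± 0.49 against 10.91 ± 0.37 (SD, n = 5 each), a change of 1.04 ± 0.21 (limma adjusted p = 0.00436).

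Type III collagen, which forms thin fibrils together with type I, had the largest change of all members. Col3a1 read 12.19, 11.51, 10.78, 11.81 and 12.45 in the exercise arrays and 10.26, 11.11, 10.78, 10.26 and 11.05 in the non-exercise arrays, in the order above. Arrays 300, 301, 309 and 310 again lay above every non-exercise array and 306 did not. Its change was 1.06 ± 0.26, or 2.08-fold (limma adjusted p = 0.0135). In whole-tumour RNA, more cells of a type and more RNA per cell cannot be told apart, here and for every gene below.

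Type V chains, which sit inside type I fibrils and set their diameter, rose in part. Col5a2, the gene next to Col3a1 in the mouse annotation, read 10.60, 10.03, 9.37, 10.20 and 10.63 with exercise and 9.07, 9.67, 9.41, 9.07 and 9.53 without, a change of 0.82 ± 0.20 (limma adjusted p = 0.0135). The levels of Col5a3, a rarer chain, were closer together, 9.10, 9.02, 8.68, 8.998 and 9.10 against 8.53, 8.80, 8.72, 8.53 and 8.79. Both genes had 4 exercise arrays above all others, with 306 among the non-exercise values. The change of Col5a3 was 0.30 ± 0.10 (limma adjusted p = 0.0442), a call that ended when 300, 301, 309 or 310 of the exercise group, or 326, 327, 329 or 330 of the other group, was left out (limma adjusted p 0.00938 to 0.118 over the 10 fits leaving out 1 array). Col5a1, the partner of Col5a2, read 10.24, 9.91, 9.42, 10.13 and 10.29 against 9.31, 9.69, 9.53, 9.48 and 9.87 and did not pass, at 0.42 ± 0.15 (95% interval 0.10 to 0.74, limma adjusted p = 0.0696). It passed without exercise array 306 or non-exercise array 331, and without the 3 arrays with hepatocyte transcripts (0.50).

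The other 5 fibrillar genes are Col2a1, Col11a1 and Col11a2, chains of cartilage fibrils, and Col24a1 and Col27a1. None passed, with changes from 0.001 to 0.15. In the exercise and non-exercise groups Col2a1 ranged from 9.88 to 10.51 and from 9.83 to 10.28, so that the groups overlapped. Markers of cartilage and bone other than collagens gave 0 of 7 higher and 1 lower (against 6.35% and 10.6% of all genes). The lower gene was Hapln1, a link protein of cartilage, at -0.80. It was at -0.37 and not called without the 3 arrays with hepatocyte transcripts. The mean level of 6 of the 7 markers lay under 8.75.

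**Figure D2:**
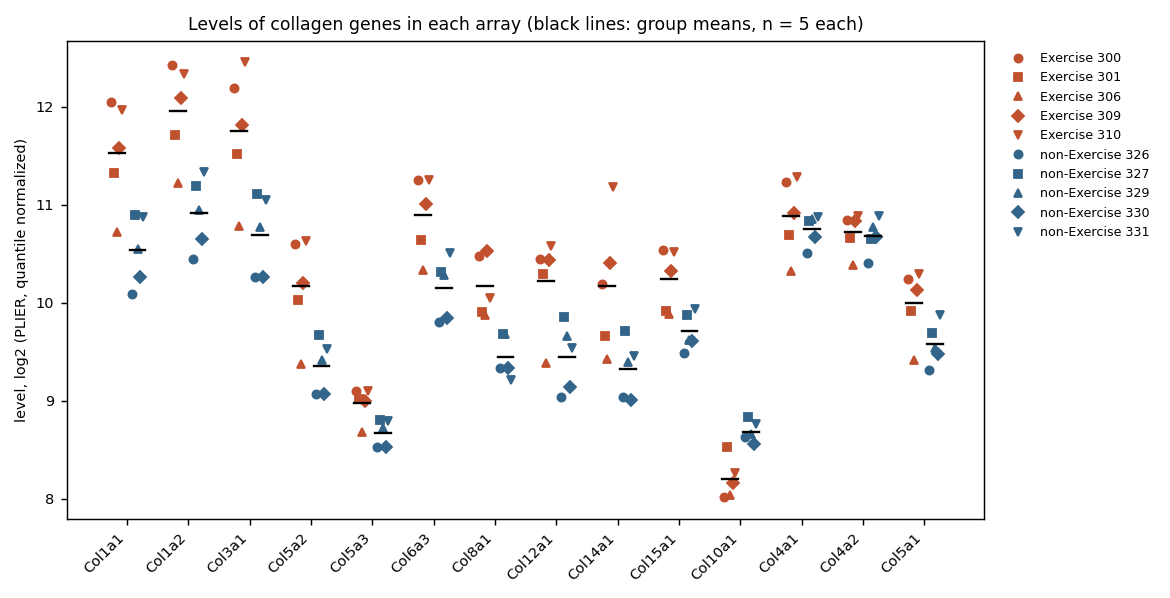
Level of 14 collagen genes in each array (log2 scale, quantile normalized); orange symbols are the 5 exercise arrays, blue symbols the 5 non-exercise arrays, each array with its own shape, and black lines the group means. In 9 of the 10 genes called higher, exercise array 306 (orange triangle) lies within the range of the non-exercise arrays; Col4a1 and Col4a2 overlap between groups.

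Basement membrane collagen showed a smaller and mostly undetected difference. Col4a1 and Col4a2, which form the most widespread type IV network, are transcribed in opposite directions from the shared region printed above. Col4a1 read 11.23, 10.69, 10.32, 10.92 and 11.29 in the exercise arrays and 10.51, 10.83, 10.86, 10.68 and 10.88 in the non-exercise arrays, so that 3 exercise arrays lay above and 306 below all others. Col4a2 read 10.84, 10.66, 10.39, 10.84 and 10.89 against 10.40, 10.65, 10.77, 10.67 and 10.88, with the groups overlapping almost fully. The changes were 0.14 ± 0.15 for Col4a1 (95% interval -0.19 to 0.46, limma adjusted p = 0.632) and 0.05 ± 0.10 for Col4a2 (-0.17 to 0.27, limma adjusted p = 0.844). Both intervals end below the change of Col1a1, 0.99; the difference between types I and IV was not tested. The chains of the kidney-type and skin-type networks, Col4a3, Col4a4, Col4a5 and Col4a6, changed by 0.06, -0.15, -0.03 and -0.15 and did not pass. The mean levels of Col4a3, Col4a4 and Col4a6 (8.57, 8.37 and 7.49) were under 8.75, so that for these the arrays gave little signal over background. For Col4a4 all 5 exercise arrays (8.20 to 8.39) lay below all non-exercise arrays (8.39 to 8.54), as for 8.33% of all genes.

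Of the multiplexins 1 rose. Col15a1, a proteoglycan collagen that links basement membranes to the fibrils around them, read 10.54, 9.91, 9.89, 10.32 and 10.52 with exercise and 9.49, 9.87, 9.62, 9.61 and 9.94 without. Arrays 300, 309 and 310 were above all non-exercise arrays, while 301 and 306 were within their range. Its change was 0.53 ± 0.14 (limma adjusted p = 0.0158). Col18a1, whose cleaved end is the angiogenesis inhibitor endostatin, had a change of 0.19 ± 0.13 and did not pass (95% interval -0.10 to 0.47, limma adjusted p = 0.404), with 9.93, 9.44, 9.09, 9.70 and 9.78 against 9.22, 9.50, 9.38, 9.32 and 9.57.

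Type VI collagen forms beaded filaments from 3 chains, and these did not all pass. Col6a3, the long alpha-3 chain, read 11.26, 10.64, 10.34, 11.01 and 11.26 in the exercise arrays and 9.81, 10.31, 10.29, 9.84 and 10.51 in the others, a change of 0.75 ± 0.18 (limma adjusted p = 0.0106). Arrays 300, 301, 309 and 310 were above all non-exercise arrays. Col6a1 ranged from 10.10 to 11.04 with exercise and from 9.69 to 10.48 without, and Col6a2 from 9.91 to 10.90 and 9.57 to 10.40. Their changes were 0.51 ± 0.18 (95% interval 0.12 to 0.91, limma adjusted p = 0.0736) and 0.51 ± 0.18 (0.12 to 0.91, limma adjusted p = 0.0711), and both passed when 301, 306 or 331 was left out. Col6a4, Col6a5 and Col6a6, replacement chains for Col6a3, changed by -0.07, 0.11 and 0.16 and did not pass. Col6a5 had 2 probe sets that disagreed in direction, at 0.11 and -0.23, and Col6a6 had 2 at 0.16 and 0.08.

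Among the FACIT collagens, which coat fibrils, Col12a1 and Col14a1 rose and 7 others did not pass. Col12a1 read 10.44, 10.30, 9.38, 10.43 and 10.58 with exercise and 9.04, 9.86, 9.66, 9.15 and 9.54 without, with 306 far below the other 4 exercise arrays. Its change was 0.78 ± 0.21 (limma adjusted p = 0.0194), lost without non-exercise array 326 or 330 (limma adjusted p 0.000797 to 0.0562 leaving out 1 array). For Col14a1 the levels were 10.19, 9.67, 9.43, 10.40 and 11.18 against 9.03, 9.71, 9.39, 9.01 and 9.46, with array 310 the highest and 301 and 306 within the non-exercise range. Col14a1 changed by 0.85 ± 0.26 (limma adjusted p = 0.0355). The call of Col14a1 held in only 3 of the fits that left out 1 array, those without array 301, 306 or 327 (limma adjusted p 0.00922 to 0.0894 over all 10), and not without the intensity trend. Without non-exercise array 326 or 330, 2 rather than 4 of the 25 genes outside the fibrillar and basement membrane groups were higher. The share of all genes called higher was then 4.32% and 4.30%, rather than 6.35%. Leaving out any 1 array, 4.30% to 7.66% of all genes were higher and 7.20% to 11.7% lower, beside every such count below. The 7 other FACIT genes, of types IX, XVI, XIX, XX and XXII, changed by -0.05 to 0.20, the last for Col22a1, a collagen of tissue junctions. Col22a1 passed at 0.42 without exercise arrays 306, 309 and 310 (limma adjusted p = 0.0365).

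Of the 3 short-chain collagens Col8a1 rose, Col10a1 fell and Col8a2 did not pass. Col8a1, a network collagen of vessel walls and of Descemet's membrane in the eye, was the 1 collagen whose exercise arrays all lay above all non-exercise arrays, as for 3.74% of all genes. It read 10.48, 9.90, 9.88, 10.53 and 10.05 with exercise and 9.33, 9.68, 9.68, 9.33 and 9.21 without, a change of 0.72 ± 0.14 or 1.65-fold (limma adjusted p = 0.00338). The second type VIII chain, Col8a2, stayed between 8.29 and 8.56 in all 10 arrays (change -0.01 ± 0.08, limma adjusted p = 0.959). Col10a1, the collagen of hypertrophic cartilage, read 8.02, 8.52, 8.03, 8.16 and 8.26 against 8.63, 8.83, 8.66, 8.56 and 8.76. Every exercise array lay below every non-exercise array, as for 8.33% of all genes. Col10a1 fell by 0.49 (SE 0.10, limma adjusted p = 0.00538), a call lost without exercise arrays 306, 309 and 310. Its mean level of 8.44 was also under 8.75, near background.

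Collagens of epithelial attachment did not pass. Col7a1, the anchoring fibril of the skin, ranged from 9.50 to 10.15 with exercise and from 9.55 to 10.02 without, a change of 0.16 ± 0.13 (limma adjusted p = 0.497). Col17a1, the transmembrane collagen of hemidesmosomes, changed by -0.02 ± 0.11 (limma adjusted p = 0.947), and its sign turned on the deposited table. The remaining transmembrane genes Col13a1, Col23a1 and Col25a1 and the genes Col26a1 and Col28a1 changed by -0.08 to 0.12. Of the 44 members 11 had a mean level under 8.75, among them 10 of the 33 that did not pass, so that for these the arrays gave little signal over background.

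The order of the arrays differed among the members. For the 10 genes called higher, exercise array 306 was the lowest exercise array in 10 of 10, array 310 the highest in 6 and array 300 in 3. Among the non-exercise arrays 326 was the lowest in 7 of the 10 and 327 the highest in 7. The 33 genes that did not pass showed a mixed order. The lowest exercise array was 310 for 18 of them and 306 for 14. The highest was 300 for 15, 301 for 11 and 310 for 5. Of the 33, Col4a1, Col4a2, Col5a1 and Col6a2 had 306 lowest and 310 highest, as did 6 of the 10 genes called higher. For 21 of these 33, arrays 330 and 331 were the 2 highest non-exercise arrays, although 330 lay near the bottom of the non-exercise group for the type I and III chains. Of the 3 arrays with hepatocyte transcripts, 306 was thus the lowest exercise array for the genes called higher and 310 most often the highest; the part of these transcripts in the collagen values was not tested.

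**Figure D3:**
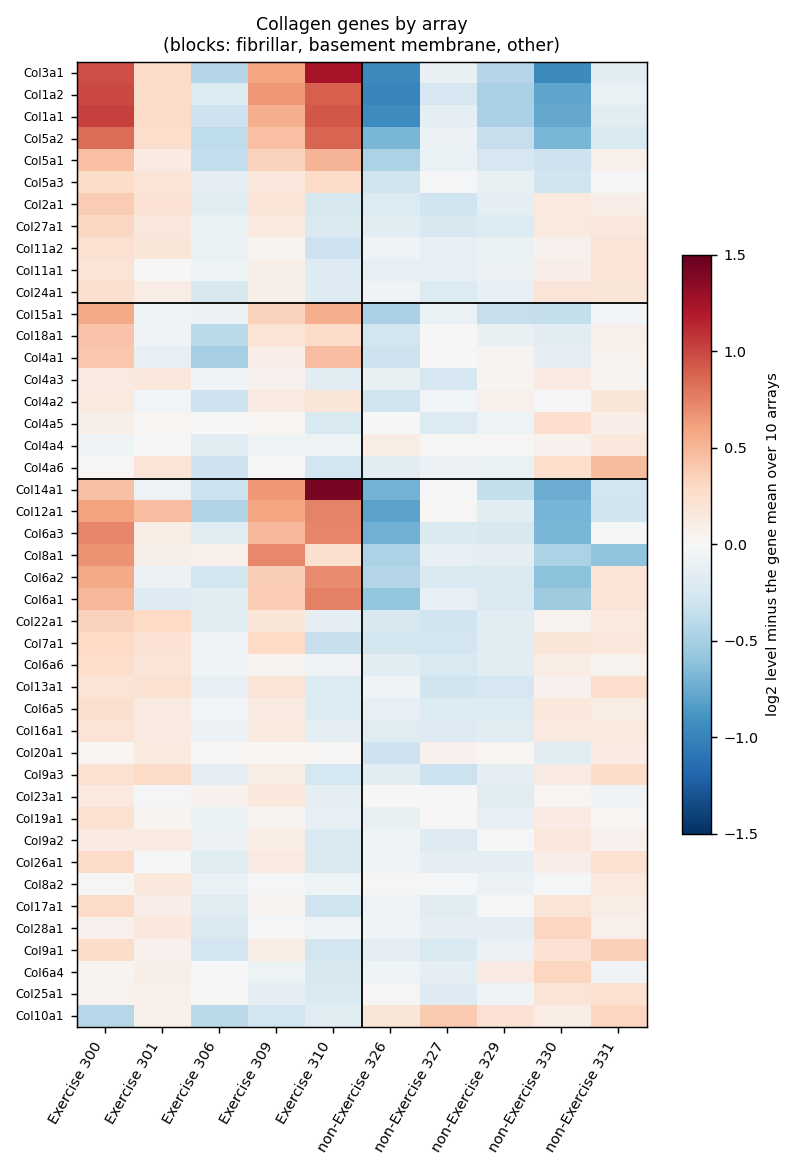
Level of each of the 44 collagen genes in each of the 10 arrays, minus the mean of the gene over the arrays (log2 scale; red above, blue below); the vertical line parts the exercise from the non-exercise arrays and the horizontal lines part fibrillar, basement membrane and other types. The rows of Col1a1, Col1a2, Col3a1, Col5a2, Col6a3, Col12a1 and Col14a1 are red in arrays 300, 309 and 310 and blue in 306. Col5a3 and Col15a1 have the same signs, and so do Col4a1, Col4a2, Col5a1, Col6a1, Col6a2 and Col18a1, which did not pass.

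Chains that join in 1 molecule, or stand side by side as types, were compared within arrays in 12 pairs. Each pair gave 1 difference of log2 levels per array, and the groups were compared by an exact permutation test over all assignments of the 10 arrays to the groups (two-sided), with Benjamini-Hochberg adjustment over the 12 pairs. For the type I chains the shift of Col1a1 minus Col1a2 was -0.05 ± 0.04 (exact permutation p = 0.246, adjusted 0.492). That of Col1a1 minus Col3a1 was -0.06 ± 0.08 (exact permutation p = 0.50, adjusted 0.600), and that of Col6a1 minus Col6a2 -0.002 ± 0.06 (exact permutation p = 0.984, adjusted 0.984). Each of these 3 shifts is much smaller than the changes of the chains themselves.

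None of the 12 pairs passed after adjustment, and 5 had an exact permutation p under 0.05 before it. Even the smallest p possible with 5 against 5 arrays cannot pass adjustment over 12 pairs unless other pairs also have small p. The difference Col15a1 minus Col18a1 lay at 0.47 to 0.80 with exercise and 0.24 to 0.38 without, with no overlap between groups (shift 0.34 ± 0.06, exact permutation p = 0.00794, the smallest that 5 against 5 arrays allow, adjusted 0.0635). Col8a1 minus Col8a2 shifted by 0.73 ± 0.20 (exact permutation p = 0.0159, adjusted 0.0635). The shift was -0.40 ± 0.10 for Col5a1 minus Col5a2 (exact permutation p = 0.0159, adjusted 0.0635), and -0.24 ± 0.07 for Col6a1 minus Col6a3 (exact permutation p = 0.0238, adjusted 0.0714). The shift of Col4a3 minus Col4a4 was 0.21 ± 0.08 (exact permutation p = 0.0476, adjusted 0.114), and that of Col4a1 minus Col4a2 0.09 ± 0.10 (exact permutation p = 0.389, adjusted 0.583). The other 3 pairs (Col4a5 and Col4a6, Col9a1 and Col9a2, Col11a1 and Col11a2) shifted by 0.12 ± 0.12, -0.07 ± 0.09 and -0.01 ± 0.05. Without exercise array 306 the adjusted p was 0.0476 for Col15a1 and Col18a1, Col8a1 and Col8a2, Col5a1 and Col5a2, and Col6a1 and Col6a3. It was the same without array 301 for Col15a1 and Col18a1 and for Col8a1 and Col8a2.

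**Figure D4:**
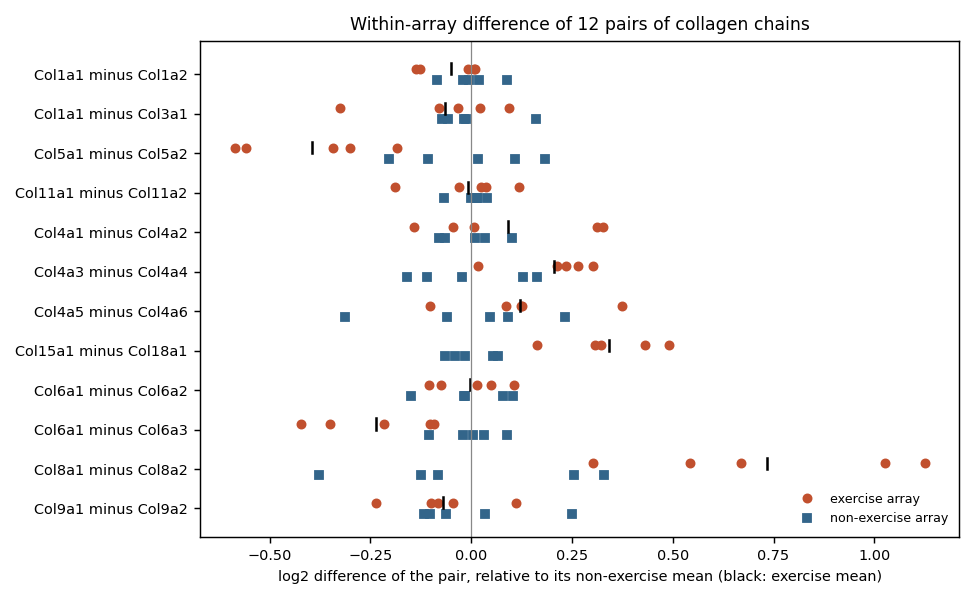
Difference of log2 levels between the chains of 12 pairs in each array, with the mean of the non-exercise arrays of each pair set to 0; orange circles are exercise arrays, blue squares non-exercise arrays and black ticks the exercise means. The groups part for Col15a1 minus Col18a1, while Col1a1 minus Col1a2 and Col6a1 minus Col6a2 stay near 0.

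Few of the genes that make and fold collagen inside the cell passed the test. Of 26 measured biosynthesis genes 1 was higher and 1 lower (against 6.35% and 10.6% of all genes), with a median change of -0.04; after median centring 2 were higher and 5 lower. Leaving out 1 array gave 0 to 2 higher and 1 to 2 lower, and leaving out the 3 arrays with hepatocyte transcripts 0 and 3. Serpinh1, the collagen chaperone HSP47, read 11.68, 11.84, 11.57, 11.77 and 11.63 in the exercise arrays and 11.69, 11.77, 11.84, 11.79 and 11.91 in the non-exercise arrays (change -0.10 ± 0.06, limma adjusted p = 0.313), and it passed as lower only after median centring. P4ha1, a prolyl hydroxylase subunit that stabilises the helix, changed by -0.01 ± 0.10 and Plod2, a lysyl hydroxylase, by -0.16 ± 0.13, and neither passed. P4ha3, another prolyl hydroxylase subunit, rose by 0.46 ± 0.13 (limma adjusted p = 0.0299), but its mean level of 7.56 was under 8.75, near background. This call was lost in 7 of the 10 fits without 1 array and without the 3 arrays with hepatocyte transcripts. Fkbp14, a prolyl isomerase of the endoplasmic reticulum, read 10.06, 10.55, 10.22, 10.22 and 10.48 against 10.72, 10.88, 10.79, 10.68 and 10.70 (change -0.45 ± 0.09, limma adjusted p = 0.00366). Every exercise array lay below every non-exercise array, as for 8.33% of all genes.

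Several genes that process and cross-link collagen outside the cell were higher. Of 13 measured maturation genes 6 rose and none fell (against 6.35% and 10.6% of all genes), with a median change of 0.47; after median centring 5 were higher and 1 lower. Tgm2, a transglutaminase that cross-links matrix proteins, read 10.65, 9.87, 10.77, 11.43 and 11.12 with exercise and 9.21, 9.70, 9.60, 9.23 and 9.49 without (change 1.32 ± 0.22, limma adjusted p = 0.00117). Adamts14, which cuts the amino-terminal propeptide from fibrillar procollagens, rose by 0.62 ± 0.11 (limma adjusted p = 0.00139), and Bmp1, which cuts the carboxy-terminal one, by 0.47 ± 0.12 (limma adjusted p = 0.0150). For Tgm2 and Adamts14 all exercise arrays lay above all others, as for 3.74% of all genes. The change of Tgm2 was 0.81 without exercise arrays 306, 309 and 310, and it was still called (limma adjusted p = 0.0120). The lysyl oxidase gene Lox read 9.90, 10.42, 8.80, 10.18 and 10.19 against 8.32, 9.49, 9.17, 8.47 and 9.31, with array 306 below 3 of the 5 non-exercise arrays. Its change of 0.95 ± 0.28 (limma adjusted p = 0.0347) was not called in 7 of the 10 fits without 1 array, nor that of Loxl1, 0.80 ± 0.24 (limma adjusted p = 0.0339), in 6 of them. Loxl1 also did not pass without the 3 arrays with hepatocyte transcripts. Pcolce, the enhancer of Bmp1 on procollagen, changed by 0.10 ± 0.08 and did not pass. The count of 6 fell to 3 when array 300, 309, 310, 326 or 330 was left out, and with the robust prior or no intensity trend.

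Several genes of the list of collagen breakdown, which holds the proteases and their inhibitors, were also higher. Of 14, 8 rose and none fell (against 6.35% and 10.6% of all genes), with a median change of 0.45. Of these 8, Timp1 (0.54 ± 0.15) and Timp3 (0.46 ± 0.11) encode inhibitors of metalloproteinases (limma adjusted p 0.0237 and 0.0137). The collagenase gene Mmp13 read 9.40, 9.04, 9.36, 9.38 and 9.33 in the exercise arrays and 8.68, 8.57, 8.59, 7.98 and 8.43 in the others (change 0.85 ± 0.12, limma adjusted p = 0.000519). Mmp9, a gelatinase, rose by 0.79 ± 0.16 (limma adjusted p = 0.00463) and the membrane collagenase Mmp14 by 0.32 ± 0.07 (limma adjusted p = 0.00514), and for these 3 all exercise arrays lay above all others, as for 3.74% of all genes. Mrc2, the receptor that takes up collagen fragments, rose by 0.46 ± 0.11 (limma adjusted p = 0.0124). The count of 8 fell to 5 when array 326 or 330 was left out. Of the 14 genes 4 had a mean level under 8.75, near background, among them Mmp9 at 8.18.

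In the list of collagen receptors, which leaves out Mrc2 (counted above with collagen breakdown), no gene was called higher. Of 9 measured, none was higher and 1 was lower (against 6.35% and 10.6% of all genes). The lower gene was Itga1, the integrin alpha-1 chain, at -0.24 ± 0.07 (limma adjusted p = 0.0269). That call was lost in 6 of the 10 fits without 1 array and without the 3 arrays with hepatocyte transcripts. When array 301 or 331 was left out, 1 receptor gene was higher and Itga1 was not called. Ddr1 and Ddr2, receptor tyrosine kinases for collagen, changed by 0.22 ± 0.09 (limma adjusted p = 0.111) and -0.005 ± 0.07 (limma adjusted p = 0.982). Itga2 had 0.20 ± 0.12 and Itga11 -0.08 ± 0.10, and neither passed.

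Partners of collagens in the matrix had a larger median change around fibrils than in basement membranes, a difference that was not tested. Of 13 proteins that bind or accompany fibrils 7 rose and none fell (against 6.35% and 10.6% of all genes), with a median change of 0.66. Tnc, the matrix protein tenascin C, read 11.98, 11.79, 10.73, 11.62 and 11.84 against 9.68, 10.39, 10.32, 9.97 and 10.49 (change 1.42 ± 0.21, limma adjusted p = 0.000558). Vcan, the proteoglycan versican, rose by 1.15 ± 0.27, Thbs1, thrombospondin 1, by 0.97 ± 0.24 and Fn1, fibronectin, by 0.61 ± 0.14 (limma adjusted p 0.00985, 0.0125 and 0.00751). The change of Thbs1 was 1.47 without the 3 arrays with hepatocyte transcripts. The count of 7 became 4 when array 309, 310, 326 or 330 was left out, 11 without array 306 and 2 with the robust prior. Of 14 laminin, nidogen and proteoglycan genes of the basement membrane 3 rose and none fell (against 6.35% and 10.6% of all genes), with a median of 0.06: Nid1, nidogen 1, at 0.53 ± 0.11, Hspg2, perlecan, at 0.45 ± 0.10 and Agrn, agrin, at 0.30 ± 0.07 (limma adjusted p 0.00527, 0.00540 and 0.0124). Agrn did not pass after median centring or without the 3 arrays with hepatocyte transcripts. The count of 3 was 5 without exercise array 306 and 2 without those 3 arrays.

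**Figure D5:**
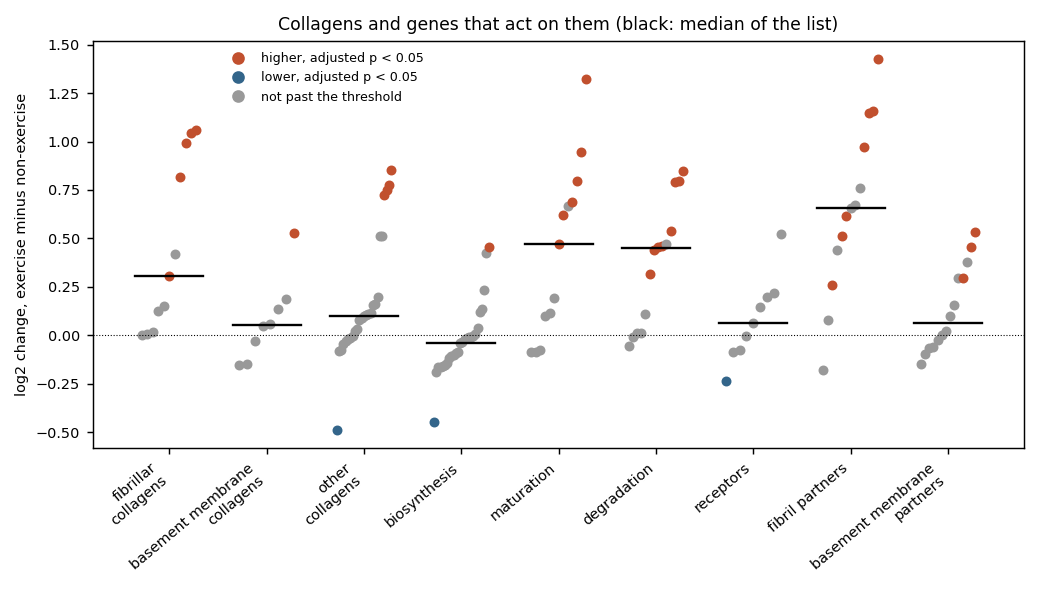
Log2 change (exercise minus non-exercise) of each gene in the 3 collagen groups and in 6 lists of genes that make, process, break down, bind or accompany collagens; orange marks genes called higher, blue genes called lower, grey genes that did not pass, and black lines the medians. Most genes of biosynthesis lie near 0, while maturation, degradation and fibril partners have medians of 0.47, 0.45 and 0.66.

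Several fibroblast markers other than collagens were higher too. Of 11 fibroblast genes, 3 of which (Dcn, Lum and Fap) are also in the matrix lists, 5 rose and 1 fell (against 6.35% and 10.6% of all genes), with a median change of 0.69, and 3 had a mean level under 8.75. The mean level of this list was 9.75, 9.41, 9.18, 9.92 and 10.32 in exercise arrays 300 to 310 and 8.87, 9.42, 9.28, 8.75 and 9.18 in non-exercise arrays 326 to 331, with 306 the lowest and 310 the highest of the exercise group, as for Col3a1. The 5 that rose were Pdgfra (0.79), Dcn (1.16), Mfap5 (1.13), Thy1 (0.57) and S100a4 (0.69), and Fbln1, fibulin 1, fell (-0.22, limma adjusted p = 0.0399). Lum, Fap, Pi16, Dpt and Clec3b did not pass. Without the 3 arrays with hepatocyte transcripts Mfap5 and S100a4 were still called and Pdgfra, Dcn, Thy1 and Fbln1 were not (limma adjusted p 0.0505, 0.113, 0.122 and 0.0724), and the median change of the list was 0.50. The count of 5 became 2 when array 326 or 330 was left out, 3 without 300, 309 or 310, 8 without 301 and 1 with the robust prior. The part of these cells in the collagen changes was not tested.

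Markers of other cells were counted in the same way, against 6.35% of all genes called higher and 10.6% called lower. Of 10 genes of pericytes and smooth muscle 1 rose and 1 fell, and of 10 endothelial genes 1 rose and 1 fell, with medians of 0.17 and 0.22; without array 301, 3 of each rose, as did 3 of the first list without 306. The mean endothelial level was 9.32 to 10.06 with exercise and 9.37 to 9.79 without. Of 6 macrophage genes 5 rose, with mean levels of 9.86 to 11.16 against 9.21 to 9.81, and of 6 leukocyte genes 3 rose, 8.93 to 10.09 against 8.83 to 9.09. None of 8 keratinocyte genes passed, and 6 of them had a mean level under 8.75. None of 8 skeletal muscle genes passed, although their mean level spread from 7.56 to 10.29 over the exercise arrays and from 8.14 to 9.03 over the non-exercise arrays. Adipocyte genes had 1 of 6 higher (7.61 to 9.83 against 7.61 to 8.88), hepatocyte genes 1 of 10 and Schwann cell genes 1 of 3. Without array 300 or 301, 8 hepatocyte genes were higher. Without the 3 arrays that hold hepatocyte transcripts, 3 macrophage genes, 1 leukocyte gene and no adipocyte, hepatocyte or Schwann cell gene were higher (against 3.74% of all genes). The part of any of these cells in the collagen changes was not tested.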

How the data were processed

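The values the authors deposited are PLIER summaries on a log2 scale, 1 per probe set and array, per the submitters' processing notes; the scale was read from their range of 4.66 to 14.55. The PLIER version, any added constant and the genome build were not stated in the sources. The labels' protocols name a pair of RNA kits without assigning them to tumours.

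Because array medians differed by 0.126, all 35556 probe sets were quantile normalized (limma 3.58.1, R 4.3.3). Of these, 21789 had 1 gene symbol, 1621 had several and 12146 were not listed; 21698 matched GRCm38.p6, used for names, neighbours and promoters, and 0 symbols changed. A gene with several probe sets (999 genes) was represented by its brightest. limma's lmFit and eBayes, with an intensity trend and no filter on dim genes, gave two-sided tests of 5 against 5 arrays. No pair of arrays shared more than 1 identical value. On 5 simulated sets of this comparison, each with 19938 genes and 200 changed, 72.6% of changes of 0.5 and 96.6% of changes of 1 were recovered, with a mean of 7.40 false calls. Figures used matplotlib 3.10.9 (Python 3.11.15).

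Named are all collagens past the threshold, 17 fixed collagens, 12 fixed pathway genes and up to 4 genes with the smallest p per pathway list; the other named members, Hapln1, the fibroblast genes, Timp1 and Timp3 were chosen after their values were seen. Members and lists were chosen with earlier results of these data known. Not analysed here are Col21a1 and 12 other listed genes. Alternatives were the deposited table, median centring, no trend, a robust prior, array weights, 2 filters on dim genes, averaged probe sets, an adjusted p of 0.10, and leaving out arrays.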

Additional observations from a re-analysis of the deposited data

Results flagged for a closer look

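In groups of 5 arrays, a value counts as standing apart when its gap to the nearest array exceeds 0.71 of the range of the group (Dixon's test); 142 groups were looked at, and chance marks about 1 in 20 of them, so the 7 found are no more than chance gives. Exercise array 306 was low for Col12a1 (9.38, nearest array 10.30), Col5a3 (8.68, nearest 8.998) and Tnc (10.73, nearest 11.62). Array 301 was high for Col20a1 (8.74, nearest 8.63) and low for Mmp13 (9.04, nearest 9.33) and for Pcolce (11.82, nearest 12.18). Array 310 was low for Col4a5 (8.81, nearest 9.04).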

How the results depend on the processing

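The count of 10 higher collagen genes was 9 to 13 under the other settings except the robust prior. Of all genes 3.74% (without exercise arrays 306, 309 and 310) to 10.4% (filter at the level of olfactory receptors) were higher there. That filter left 33 members, 11 of them higher. The robust prior gave 4 (2 fibrillar and 1 of the other types), against 5.18% of all genes. Leaving out 1 array gave 7 to 13 (against 4.30% to 7.66% of all genes). Over the 10 fits leaving out 1 array, Col1a1, Col1a2, Col3a1, Col5a2, Col6a3, Col8a1 and Col15a1 kept their calls in all, the fibrillar count was 4 to 6, that of basement membrane genes 1 and that of other types 2 to 6. Col10a1 was not tested with the filter at the level of olfactory receptors and not called without exercise arrays 306, 309 and 310, which left 0 lower collagen genes. The median change of the members, 0.11, lay between 0.06 and 0.23. Of 914 changes of named genes under an alternative, 813 kept direction and side of the threshold, 65 lost their call, 18 gained one and 18 turned sign; of 156 pair differences 140 did not change, 6 passed and 10 turned. The sign turned for values near 0. Col17a1 was 0.030 on the deposited table, 0.067 with array weights, 0.18 without the 3 arrays and -0.095 to 0.051 leaving out 1 array. Col4a2 was -0.038 after median centring and -0.022 to 0.13 leaving out 1 array. Ddr2 was 0.00938 with array weights and -0.054 to 0.056 leaving out 1 array, and P4ha1 -0.11 to 0.039. Among pairs, Col11a1 minus Col11a2 was 0.032 on the deposited table and -0.039 to 0.038 leaving out 1 array. Without the 3 arrays Col1a1 minus Col1a2 was 0.000261 and the pair Col9a1 minus Col9a2 0.00565. Col6a1 minus Col6a2 was -0.040 to 0.024 and Col1a1 minus Col3a1 -0.10 to 0.0013 leaving out 1 array. The cause was not tested. No paired analysis was possible because the groups share no replicate number.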
